A study of Mus musculus with 3 samples.

Results

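Imprinted genes were followed through the cells of the neonatal mouse testis. The 10 genes H19, Dlk1, Meg3, Peg3, Mest, Grb10, Plagl1, Nnat, Snrpn and Impact were listed by symbol, and 10 of the 10 were found among the 27998 genes of the count matrix. Single-cell libraries had been made from testes of 3 genotypes, with 1 library each: Cdk2-Y15S, homozygous for the YS allele of the kinase gene Cdk2; Cdk2-HET, heterozygous for it; and Cdk2-WT, wild type. Per the labels, the males had no treatment, were at postnatal day 3 (3.5 in the dissection protocol), came from crosses of heterozygotes, and shared a mixed background of B6(Cg)-Tyrc-2J/J with FVB/NJ. How many animals were pooled in a library is not known here. The series concerns CDK2 activity in germ cell fate. The imprinted genes were read in 5 cell classes of each library and in the germ cell clusters A to E of the authors.

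An imprinted gene is transcribed from 1 of its 2 parental copies, as set by DNA methylation laid down in the egg or the sperm. In the male germ line the marks inherited from the parents are erased in primordial germ cells and paternal marks are written in prospermatogonia before and around birth. In most body cells Dlk1, Peg3, Mest, Plagl1, Nnat, Snrpn and Impact are read from the paternal copy, and H19, Meg3 and Grb10 from the maternal copy. Many of these genes act in growth of the embryo and fall in level after birth. The counts do not separate the parental copies, so only total transcript levels were measured.

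The libraries held 4403 Cdk2-Y15S, 4958 Cdk2-HET and 5061 Cdk2-WT cells with 28651691, 32025077 and 30624473 unique molecular identifiers (UMIs, counted transcript molecules), and 4328, 4847 and 4953 cells were kept. Cells were put into classes by the summed UMIs of a few genes, none of them imprinted. Germ cells numbered 111 in Cdk2-Y15S, 61 in Cdk2-HET and 118 in Cdk2-WT, Leydig cells 79, 70 and 76, peritubular myoid cells 723, 834 and 655, interstitial stromal cells 1644, 1575 and 1480, and Sertoli cells 1559, 2130 and 2452. Of markers not used to choose the cells, 6 of 6 were highest in germ cells, 3 of 3 in Leydig cells, 4 of 5 in myoid cells (Des was higher in stromal cells), 4 of 5 in stromal cells (Tcf21 was higher in myoid cells) and 5 of 6 in Sertoli cells (Clu was higher in Leydig cells). The Leydig class also held macrophage transcripts, 197 to 410 CPM over the 6 macrophage markers, against 9804 to 18637 CPM in macrophages. CPM is the count of a gene scaled to the total UMIs of the class in that library (counts per 1e+06). The ribosomal protein gene Rpl29 stood apart in 1 library, at 496 CPM in Cdk2-Y15S, 29.6 CPM in Cdk2-HET and 27.4 CPM in Cdk2-WT. Between 55 and 60 cell barcodes of each library also occurred in another library.

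The stromal cells of the interstitium held the highest level of 7 of the 10 genes among the 5 classes: Dlk1, Meg3, Peg3, Mest, Grb10, Plagl1 and Impact. H19 and Nnat were highest in myoid cells and Snrpn in Sertoli cells. Germ cells held the highest mean of none of the 10. In stromal cells over Sertoli cells, 8 of the 10 genes rose and 2 fell by edgeR's quasi-likelihood test with Benjamini-Hochberg adjusted p under 0.05, when 32.9% of the 13565 genes tested were higher and 31.1% lower. The median log2 fold change of the 10 was 5.30, against 0.00 over all genes tested. The p-values rest on 3 libraries that differ in genotype, so they measure the spread of class differences across these libraries.

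**Figure D1:**
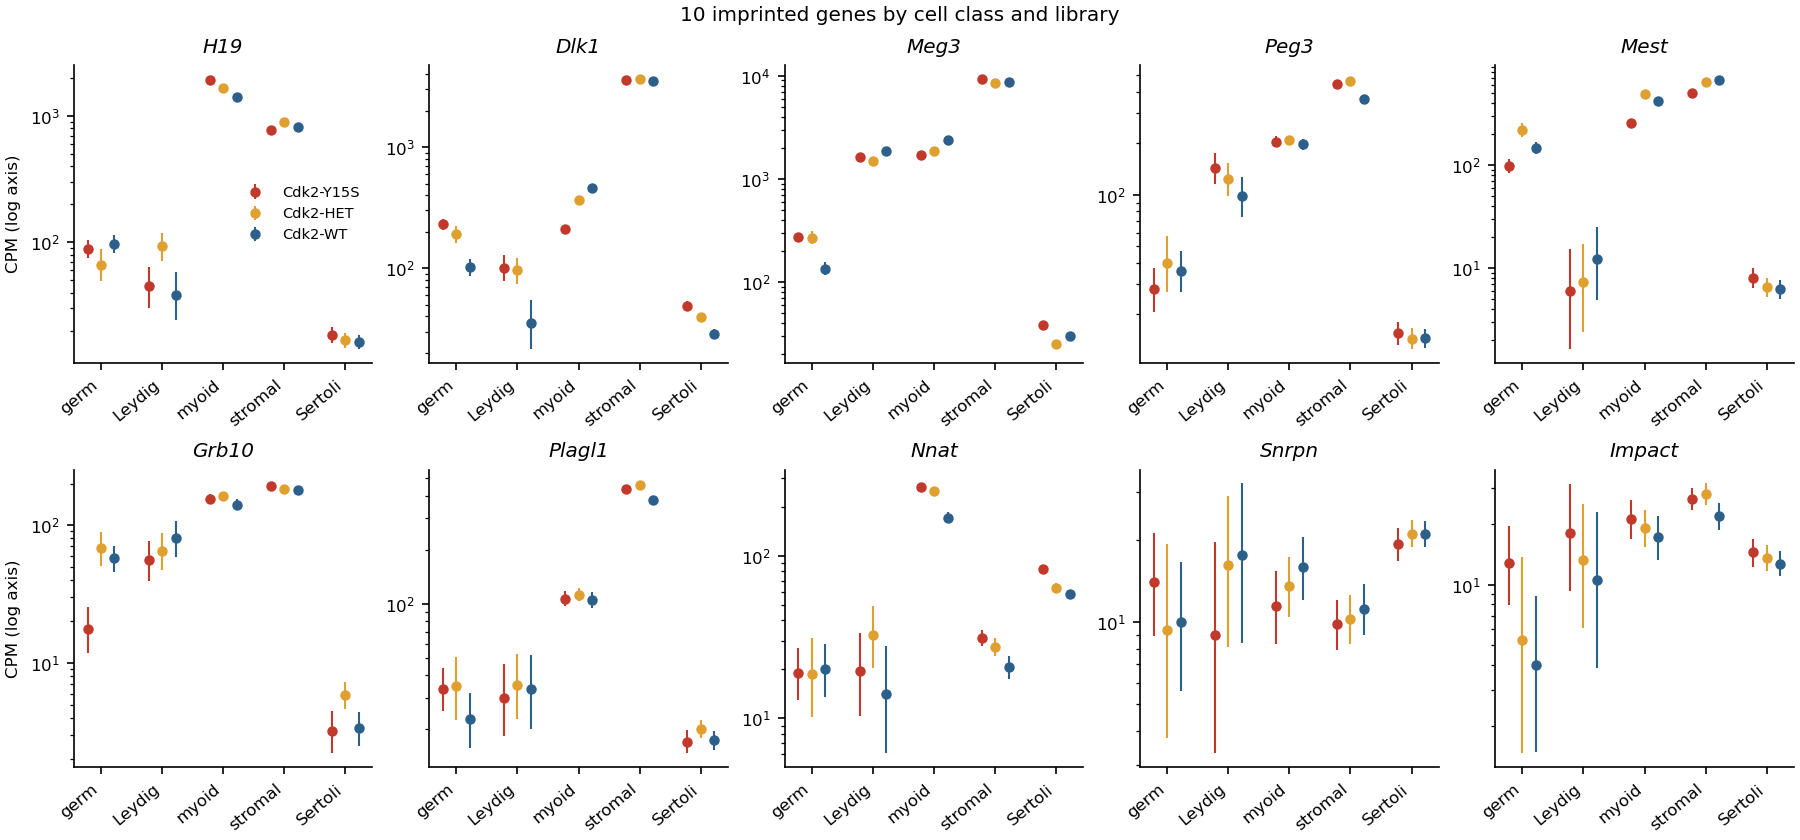
Level of each of the 10 imprinted genes in CPM (vertical log axis) in 5 cell classes; each point is 1 library (red Cdk2-Y15S, orange Cdk2-HET, blue Cdk2-WT) and each bar its exact 95% Poisson interval. Stromal cells are highest for 7 genes and myoid cells for H19 and Nnat, and Snrpn stays between 9.0005 and 21.1 CPM.

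Dlk1 and Meg3 lie side by side on chromosome 12 (GRCm38, GENCODE M21: Dlk1 at chr12:109452823-109463336 and Meg3 at chr12:109541001-109571726, both on the plus strand). Dlk1 encodes a transmembrane relative of the Notch ligands that holds back the differentiation of mesenchymal precursors, and Meg3 a long noncoding RNA that runs from the other parental copy. Dlk1 reached 3610 CPM in Cdk2-Y15S, 3621 CPM in Cdk2-HET and 3539 CPM in Cdk2-WT stromal cells, against 49.0, 39.4 and 28.7 CPM in the Sertoli cells of the same libraries (log2 fold change 6.69 ± 0.32 SE, edgeR adjusted p = 4.4e-14). Meg3 reached 9271, 8525 and 8688 CPM in the stromal cells of Cdk2-Y15S, Cdk2-HET and Cdk2-WT, against 38.0, 24.7 and 29.7 CPM in their Sertoli cells, the widest difference of the 10 genes (log2 fold change 8.31 ± 0.24 SE, edgeR adjusted p = 2.03e-17). No library overlapped between these classes for either gene. At least 1 Meg3 UMI was found in 99.1% to 99.5% of stromal cells and in 12.03% to 18.7% of Sertoli cells at median depths of 4931 to 5586 and 6064 to 6258 UMIs per cell. After each cell was thinned to 3000 UMIs the shares were 98.7% to 99.5% and 7.07% to 8.94%. Endothelial cells, shown as a further type, held a Meg3 UMI in 9.09% to 28.6% of cells before thinning, so the Sertoli share lies in the range of that type.

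The pair parted in the other classes. In myoid cells over stromal cells Dlk1 fell by 3.33 ± 0.27 on the log2 scale (adjusted p = 5.06e-09, edgeR) and Meg3 by 2.13 (log2 fold change -2.13 ± 0.18 SE, edgeR adjusted p = 1.11e-08). In Leydig cells over stromal cells Dlk1 had a log2 fold change of -5.70 ± 0.33 SE and Meg3 of -2.58 ± 0.19 SE (edgeR adjusted p = 1.15e-11 and 3.79e-10). Leydig cells, the source of testicular androgen, held Meg3 at 1614, 1499 and 1860 CPM in Cdk2-Y15S, Cdk2-HET and Cdk2-WT while Dlk1 was at 101, 95.9 and 35.1 CPM. For every Meg3 UMI there were 0.389 to 0.425 Dlk1 UMIs in stromal cells, 0.123 to 0.196 in myoid cells, 0.0189 to 0.064 in Leydig cells, 0.965 to 1.59 in Sertoli cells and 0.708 to 0.843 in germ cells. These are ratios of UMIs of 2 genes read near their 3-prime ends, so only their change between classes can be read. The germ ratio also depends on which germ cells are counted. Germ cells with under 5 UMIs over Col1a1, Col1a2, Col3a1 and Dcn held 167, 81 and 129 Dlk1 UMIs in Cdk2-Y15S, Cdk2-HET and Cdk2-WT. Their Meg3 UMIs were 63, 78 and 136.

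The promoters are shown because Meg3 and Peg3 had the highest correlation of level of the 45 member pairs (Pearson r = 0.976 over the 15 class and library sums, which share 3 libraries) while Dlk1, next to Meg3, served as contrast. Each is the 250 bases before the RefSeq gene start on GRCm38.p6, read 5′ to 3′ on the gene's strand, with the palindromes TGACGTCA (the cyclic AMP response element) and GGGGCCCC in capitals.
Meg3 (chr12:109540746-109540995, plus strand): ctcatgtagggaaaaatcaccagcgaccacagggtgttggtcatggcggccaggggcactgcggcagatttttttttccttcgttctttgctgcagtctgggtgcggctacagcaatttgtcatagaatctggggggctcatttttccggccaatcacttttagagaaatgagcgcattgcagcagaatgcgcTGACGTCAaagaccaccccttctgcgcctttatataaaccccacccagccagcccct
Peg3 (chr7:6730420-6730669, minus strand): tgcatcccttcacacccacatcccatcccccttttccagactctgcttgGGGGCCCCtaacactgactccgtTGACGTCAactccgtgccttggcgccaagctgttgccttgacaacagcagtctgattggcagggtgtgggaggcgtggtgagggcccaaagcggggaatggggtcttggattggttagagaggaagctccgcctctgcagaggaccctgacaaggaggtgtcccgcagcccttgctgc
Dlk1 (chr12:109452573-109452822, plus strand): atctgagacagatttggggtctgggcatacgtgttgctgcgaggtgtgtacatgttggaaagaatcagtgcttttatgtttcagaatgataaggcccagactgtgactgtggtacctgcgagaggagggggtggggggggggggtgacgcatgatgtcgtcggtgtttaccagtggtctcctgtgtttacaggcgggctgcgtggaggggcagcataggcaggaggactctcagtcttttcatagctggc
Of the 4 motifs searched on both strands, TGACGTCA was found before Meg3, 49 bases from the start, and before Peg3, 170 bases from it, among the 8 of 10 genes with a window. Of 32851 windows of the same length, 1.55% hold TGACGTCA and 0.889% hold GGGGCCCC. GGGGCCCC was found before Peg3, GGGCGG before Grb10, Mest and Plagl1 (32.7% of windows) and TATAAA before Meg3 and Snrpn (12.4% of windows). A match says only that the letters are there.

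H19, a maternal long noncoding RNA beside the growth factor gene Igf2, was highest in the contractile cells of the tubule wall. It stood at 1928 CPM in Cdk2-Y15S, 1674 CPM in Cdk2-HET and 1407 CPM in Cdk2-WT myoid cells, against 775, 901 and 815 CPM in the stromal cells of the same libraries, and the classes did not overlap. The log2 fold change in myoid over stromal cells was 1.02 ± 0.16 SE (edgeR adjusted p = 4.17e-05). In Sertoli cells H19 was at 18.6, 16.8 and 16.2 CPM, below the 55.4 to 78.5 CPM of endothelial cells. Nnat, which encodes a small membrane protein best known from the brain, was also highest in myoid cells. It was at 263, 252 and 171 CPM in myoid cells of Cdk2-Y15S, Cdk2-HET and Cdk2-WT, against 31.2, 27.4 and 20.5 CPM in stromal cells (log2 fold change 3.13 ± 0.14 SE, edgeR adjusted p = 4.48e-13). Its stromal values also lay below the Sertoli values of 82.5, 63.4 and 57.8 CPM (log2 fold change of stromal over Sertoli cells -1.23 ± 0.13 SE, edgeR adjusted p = 3.84e-08).

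Of the 10 genes, 2 rose, 5 fell and 3 were not called in myoid over stromal cells, when 9.23% of all genes tested were higher and 11.5% lower. Beside Dlk1 and Meg3, Plagl1 fell by 1.94 on the log2 scale, Peg3 by 1.03 and Mest by 0.64 (SE 0.11, 0.11 and 0.15). Grb10 had a log2 fold change of -0.27 ± 0.19 SE, Impact of -0.40 ± 0.17 SE and Snrpn of 0.40 ± 0.18 SE, with edgeR adjusted p-values of 0.359, 0.104 and 0.124; Impact was called without Cdk2-Y15S (0.0401). In Leydig over stromal cells 8 of the 10 fell and none rose, when 16.5% of all genes were higher and 23.5% lower (with library totals in place of TMM scaling 2722 genes were higher and 2484 lower). Mest fell furthest, with 6.0003, 7.38 and 12.3 CPM in Leydig cells of Cdk2-Y15S, Cdk2-HET and Cdk2-WT, against 494, 634 and 666 CPM in stromal cells (log2 fold change -6.32 ± 0.28 SE, edgeR adjusted p = 1.23e-13). Nnat and Snrpn had log2 fold changes of -0.40 ± 0.24 SE and 0.28 ± 0.29 SE and were not called (edgeR adjusted p = 0.198 and 0.495). Impact fell by 1.03 on the log2 scale, a call lost without Cdk2-HET, at a mitochondrial limit of 10% and after thinning (edgeR adjusted p = 0.0894, 0.0622 and 0.273).

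**Figure D2:**
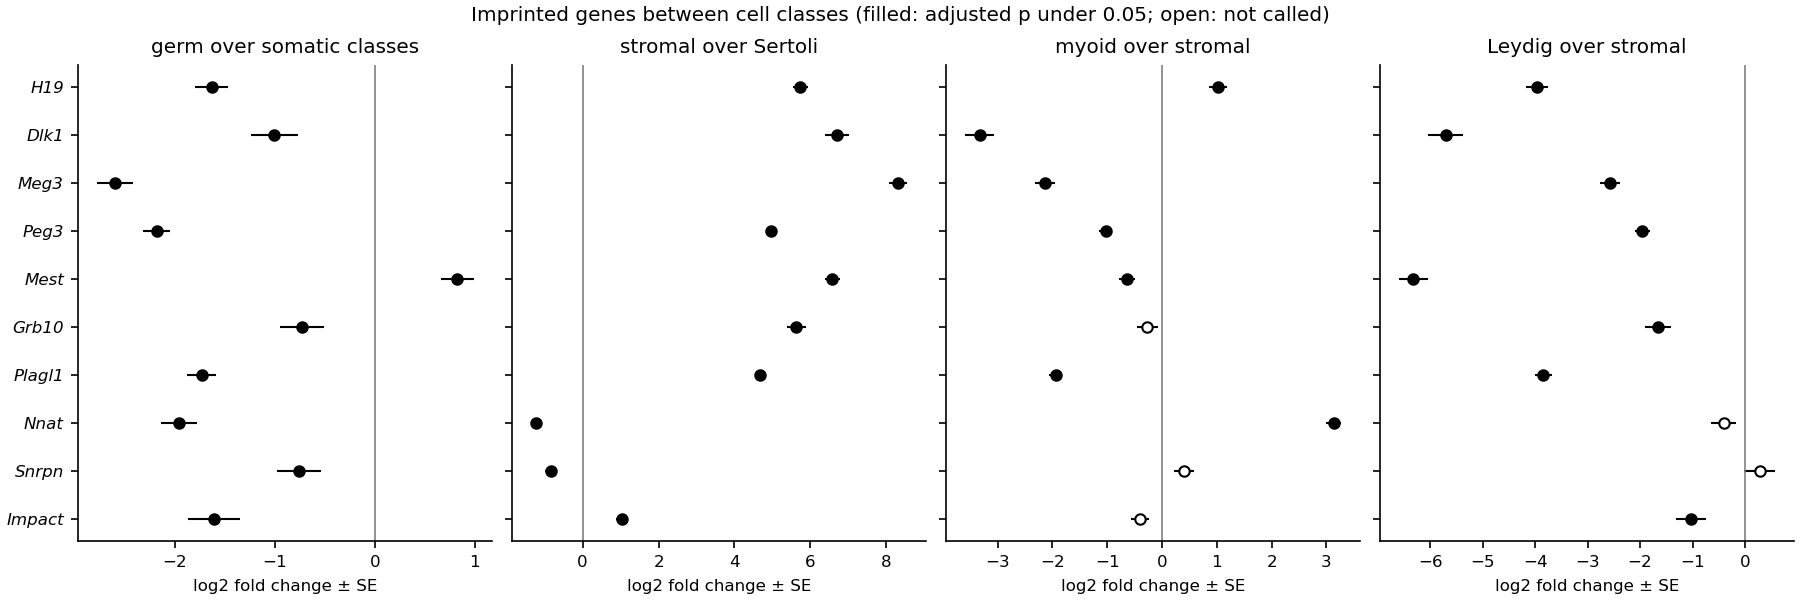
Log2 fold change with its standard error (horizontal axis) of each of the 10 genes in 4 contrasts between cell classes, from edgeR on 15 class and library sums; filled points passed adjusted p under 0.05. In stromal over Sertoli cells 8 genes lie right of 0 and 2 left of it, and in germ over somatic cells Mest alone lies right of 0.

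Peg3 and Plagl1, both zinc finger proteins, were highest in stromal cells, followed by myoid cells. Peg3 was at 442, 462 and 364 CPM in stromal cells of Cdk2-Y15S, Cdk2-HET and Cdk2-WT, at 205, 209 and 197 CPM in myoid cells, at 143, 124 and 98.3 CPM in Leydig cells, at 28.1, 39.995 and 36.1 CPM in germ cells and at 15.6, 14.4 and 14.5 CPM in Sertoli cells. No 2 neighbours in that order overlapped. Plagl1 was at 433, 456 and 377 CPM in stromal cells and at 107, 112 and 105 CPM in myoid cells, while its Leydig values (30.002, 35.4 and 33.3 CPM) overlapped those of germ cells (33.6, 34.7 and 22.7 CPM). Its Sertoli values were 17.1, 20.1 and 17.4 CPM. Grb10, an adaptor that dampens insulin receptor signalling, differed little between stromal (193, 184 and 180 CPM) and myoid cells (155, 162 and 141 CPM) and was nearly lacking in Sertoli cells (3.19, 5.87 and 3.35 CPM). Endothelial cells, outside the 5 classes, held Grb10 at 281, 299 and 289 CPM and Mest at 803, 976 and 1132 CPM, above the stromal range of either gene. These endothelial sums come from 42, 33 and 23 cells.

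Snrpn and Impact were low in every class. Snrpn, a core protein of the splicing machinery, lay between 9.0005 and 21.1 CPM in every class and library, and its exons overlap those of Snurf and Gm38393 on the same strand, so its counts are uncertain. It was higher in Sertoli cells, at 19.3, 21.1 and 21.0 CPM, than in stromal cells, at 9.81, 10.3 and 11.2 CPM (log2 fold change of stromal over Sertoli cells -0.83 ± 0.15 SE, edgeR adjusted p = 6.35e-05). Impact, which dampens the GCN2 stress kinase, was at 26.5, 28.2 and 21.8 CPM in stromal cells and 14.4, 13.6 and 12.7 CPM in Sertoli cells (log2 fold change 1.04 ± 0.15 SE, edgeR adjusted p = 4.27e-06). At least 1 UMI of either gene was seen in at most 18.0% of the cells of any of the 5 classes in any library.

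Germ cells held less of 9 of the 10 imprinted transcripts than the mean log level of the 4 somatic classes, but not less than each class. Of the 10 genes 9 fell and 1 rose, when 35.5% of all genes tested were higher and 35.9% lower, and the median log2 fold change was -1.62 against -0.05 over all genes. In CPM, germ cells held more H19, Dlk1, Meg3, Peg3, Mest, Grb10 and Plagl1 than Sertoli cells in every library. Mean Meg3 was 225 CPM in germ cells and 30.8 CPM in Sertoli cells. Sertoli cells were held to at most 2 UMIs over Col1a1, Col1a2, Col3a1 and Dcn, and germ cells had no such limit. In germ cells with under 5 of these UMIs Meg3 was at 69.6, 128 and 99.9 CPM in Cdk2-Y15S, Cdk2-HET and Cdk2-WT. Peg3 was at 17.7, 41.0 and 33.8 CPM there. Means of Nnat, Snrpn and Impact were lower in germ cells than in Sertoli cells. With library totals in place of TMM scaling, 6425 of all genes were higher and 3237 lower, and the median over all genes moved by 0.47 on the log2 scale. Meg3 fell by 2.60 (SE 0.18), Peg3 by 2.18 (SE 0.14), Nnat by 1.96 (SE 0.18), Plagl1 by 1.73 (SE 0.14), H19 by 1.63 (SE 0.17), Impact by 1.61 (SE 0.26), Dlk1 by 1.00 (SE 0.24), Snrpn by 0.76 (SE 0.22) and Grb10 by 0.73 (SE 0.22) on the log2 scale. With library totals Grb10 and Snrpn lost their calls (edgeR adjusted p = 0.354 and 0.254), Snrpn also without Cdk2-HET (0.0617) or Cdk2-WT (0.338), and Grb10 also with DESeq2 (adjusted p = 0.072). After thinning, Grb10 and Snrpn had edgeR adjusted p-values of 0.897 and 0.541, and Grb10 had 0.0597 without collagen-bearing germ cells, 0.0586 at a mitochondrial limit of 10% and 0.064 at the Leydig limit of 50 UMIs. Mest, a member of the hydrolase fold family, rose by 0.83 ± 0.16 SE (edgeR adjusted p = 0.000124), and lost its call at that mitochondrial limit (adjusted p = 0.125 by edgeR).

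Mest in germ cells lay between the somatic classes rather than above them. It was at 98.4 CPM in Cdk2-Y15S, 219 CPM in Cdk2-HET and 148 CPM in Cdk2-WT germ cells, under the lowest myoid value of 254 CPM and over the highest Leydig and Sertoli values of 12.3 and 8.06 CPM. The contrast sets germ cells against the mean log level of 4 classes, of which 2 had almost no Mest. Dlk1 UMIs were also found in germ cells. There were 376, 143 and 152 of them, in 82.0%, 85.2% and 61.9% of cells in Cdk2-Y15S, Cdk2-HET and Cdk2-WT, and after thinning to 3000 UMIs in 45.7%, 50% and 27.4%. In Sertoli cells the thinned shares were 13.8%, 10.7% and 7.67%; before thinning they were 27.5%, 22.02% and 15.9%, and in endothelial cells 28.6%, 21.2% and 17.4%. The Dlk1 UMIs per Col1a1 UMI in Cdk2-Y15S, Cdk2-HET and Cdk2-WT were 2.39, 2.27 and 3.23 in germ cells, 2.75, 2.83 and 3.71 in Sertoli cells and 1.75, 2.14 and 2.98 in stromal cells. The germ ratio lay between the Sertoli and the stromal ratio in each library. Per UMI of Col3a1, another collagen gene, it lay above both. Those ratios were 2.58, 2.38 and 3.90 in germ cells, 2.42, 2.06 and 2.5 in Sertoli cells and 1.71, 1.92 and 2.82 in stromal cells. Col1a1 and Col3a1 belong to the collagen sum that was at most 2 UMIs in Sertoli cells and at least 5 in stromal cells. Germ cells had no such limit, so the order of these ratios is partly set by the class rules. The part of stromal RNA in the germ level of Dlk1 was not tested.

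Stromal transcripts were present in part of the germ cells, and unevenly between libraries. Germ cells with 5 or more UMIs over Col1a1, Col1a2, Col3a1 and Dcn, the level that defines stromal cells, made up 37 of 111 in Cdk2-Y15S (33.3%, exact Clopper-Pearson interval 24.7% to 42.9%), 8 of 61 in Cdk2-HET (13.1%, 5.84% to 24.2%) and 7 of 118 in Cdk2-WT (5.93%, 2.42% to 11.8%). The median depths of the germ cells were 15074, 12174 and 13481 UMIs, against 4931 to 5586 in stromal cells. The same 5 UMIs are thus a smaller share of a germ cell. Germ cells under that limit had median depths of 11106.5, 11872 and 13405 UMIs, so the split also moves with depth. The cells at or above that limit carried 85.9%, 61.4% and 32.3% of the Meg3 UMIs of the germ class in Cdk2-Y15S, Cdk2-HET and Cdk2-WT. Few cells held most of these UMIs. Single Cdk2-Y15S cells held 118, 68, 56 and 56 of 383 Meg3 UMIs. Single Cdk2-HET cells held 76 and 35 of 124, and single Cdk2-WT cells 25 and 24 of 65. The other collagen-bearing germ cells held at most 19, 3 and 9 each, so the levels of the group rest on few cells. In germ cells with fewer collagen UMIs the highest Meg3 count was 4, 4 and 6. The collagen-bearing germ cells held Meg3 at 524, 887 and 480 CPM, Dlk1 at 286, 444 and 170 CPM and H19 at 118, 122 and 288 CPM in Cdk2-Y15S, Cdk2-HET and Cdk2-WT. In the other germ cells H19 was at 65.2, 54.1 and 77.9 CPM.

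**Figure D3:**
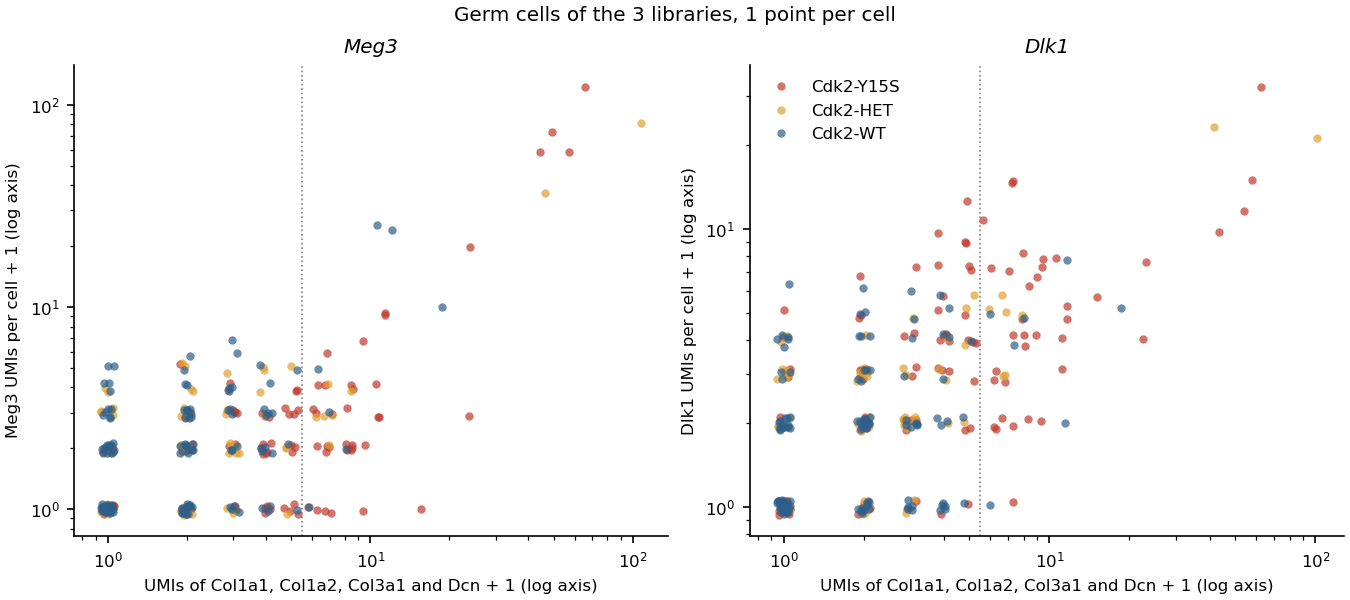
UMIs of Meg3 (left) and Dlk1 (right) in each germ cell against its summed UMIs of Col1a1, Col1a2, Col3a1 and Dcn, both plus 1 on log axes with slight jitter; each point is 1 cell, colored by library, and the dotted line marks the limit of 5 collagen UMIs. All cells with more than 6 Meg3 UMIs lie right of the line.

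The authors' germ cell table split 141 cells, 72 of Cdk2-Y15S and 69 of Cdk2-WT, into clusters A to E. Cluster A held 36 Cdk2-WT cells only, clusters D (37 cells) and E (21 cells) Cdk2-Y15S only, and clusters B (6 Cdk2-Y15S and 28 Cdk2-WT) and C (8 and 5) both, so cluster and genotype cannot be told apart for A, D and E. Dlk1 was at 94.3 CPM in cluster A (exact Poisson interval 71.2 to 122), at 60.7 CPM in Cdk2-Y15S (27.7 to 115) and 120 CPM in Cdk2-WT (93.1 to 153) cells of cluster B, at 226 CPM in cluster D (190 to 266) and at 211 CPM in cluster E (173 to 254). A Dlk1 UMI was seen in 94.6% of cells in D and 100% of the 21 cells in E, against 72.2% in A. These shares are before thinning and move with depth. The 21 cells of E held 516918 UMIs, the 37 of D 628748 and the 36 of A 594148. Grb10 ran the other way: 85.8 CPM in A (63.9 to 113), 20.2 and 20.1 CPM in Cdk2-Y15S and Cdk2-WT cells of B, 19.1 CPM in D (9.86 to 33.3) and 9.67 CPM in E (3.14 to 22.6). In cluster B Grb10 rested on 3 Cdk2-Y15S and 11 Cdk2-WT UMIs.

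Mest and H19 were lowest in cluster E. Mest was at 126 CPM in A, 148 and 159 CPM in Cdk2-Y15S and Cdk2-WT cells of B, 107 CPM in D and 61.9 CPM in E (42.3 to 87.4), and H19 at 89.2 CPM in A, 135 and 119 CPM in B, 82.7 CPM in D and 40.6 CPM in E (25.1 to 62.1). Meg3 was at 180 CPM in A (148 to 218), 87.6 and 94.8 CPM in B, 98.6 CPM in D (75.6 to 126) and 65.8 CPM in E (45.6 to 91.9). The Dlk1 UMIs per Meg3 UMI were 0.523 in A, 0.692 and 1.27 in Cdk2-Y15S and Cdk2-WT cells of B, 2.29 in D and 3.21 in E, against at most 0.425 in any stromal library. Set against Col1a1, a collagen of stromal cells, the Dlk1 UMIs lay near the stromal ratio in A and above it in D and E. They were 2.68 per Col1a1 UMI in D (1.94 to 3.75) and 3.89 in E (2.55 to 6.13), against 1.75 in Cdk2-Y15S stromal cells. Cdk2-Y15S Sertoli cells stood at 2.75 (2.33 to 3.27), near D and within the interval of E. In A the Dlk1 UMIs per Col1a1 UMI were 2.8 (1.65 to 4.93), against 2.98 in Cdk2-WT stromal and 3.71 in Cdk2-WT Sertoli cells. In B they were 1.29 (0.43 to 4.06) and 4.71 (2.62 to 9.09) in Cdk2-Y15S and Cdk2-WT cells. Per Col3a1 UMI they were 3.55 in D (2.48 to 5.18) and 6.06 in E (3.66 to 10.6), against 1.71 in Cdk2-Y15S stromal cells. Cdk2-Y15S Sertoli cells stood at 2.42 per Col3a1 UMI (2.06 to 2.85). In A the Dlk1 UMIs were 3.73 per Col3a1 UMI (2.08 to 7.11), against 2.82 in Cdk2-WT stromal and 2.5 in Cdk2-WT Sertoli cells. In B they were 0.9 and 6.6. Both collagens helped to choose stromal and Sertoli cells but not germ cells. The part of stromal RNA in these Dlk1 levels was not tested. Collagen-bearing cells were 2 of 36 in A, 3 of 6 and 3 of 28 in Cdk2-Y15S and Cdk2-WT cells of B, 15 of 37 in D and 9 of 21 in E.

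Cluster C stood apart from the other germ cells. It held Meg3 at 1482 CPM in Cdk2-Y15S and 710 CPM in Cdk2-WT cells, Dlk1 at 363 and 298 CPM, H19 at 336 and 199 CPM and Peg3 at 121 and 99.3 CPM. Col3a1, a fibrillar collagen of stromal cells, was at 447 CPM and 199 CPM there, against 18.2 to 67.4 CPM in the other clusters, 6 of 8 and 4 of 5 of its cells held 5 or more collagen UMIs, and 3 of its 13 cells were called doublets. It had 0.245 and 0.42 Dlk1 UMIs per Meg3 UMI, against 0.389 to 0.425 in stromal cells. Of 3 imprinted genes with 50 UMIs in C, H19 (log2 ratio 0.73, -0.17 to 1.76) and Meg3 (1.05, 0.60 to 1.55) were higher in Cdk2-Y15S cells (backgrounds 7.78% and 5.39%). Of 4 in B, Dlk1 was lower (-0.92, -2.18 to 0.02; backgrounds 6.76% higher and 13.3% lower). The Meg3 ratio in C rested on few cells, those called doublets included. Of its Cdk2-Y15S cells not called doublets, 1 held 56 of the 159 Meg3 UMIs and the others at most 8 each. The Cdk2-WT cells not called doublets held 1, 9 and 4 of 50. The part of stromal RNA in these levels was not tested.

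**Figure D4:**
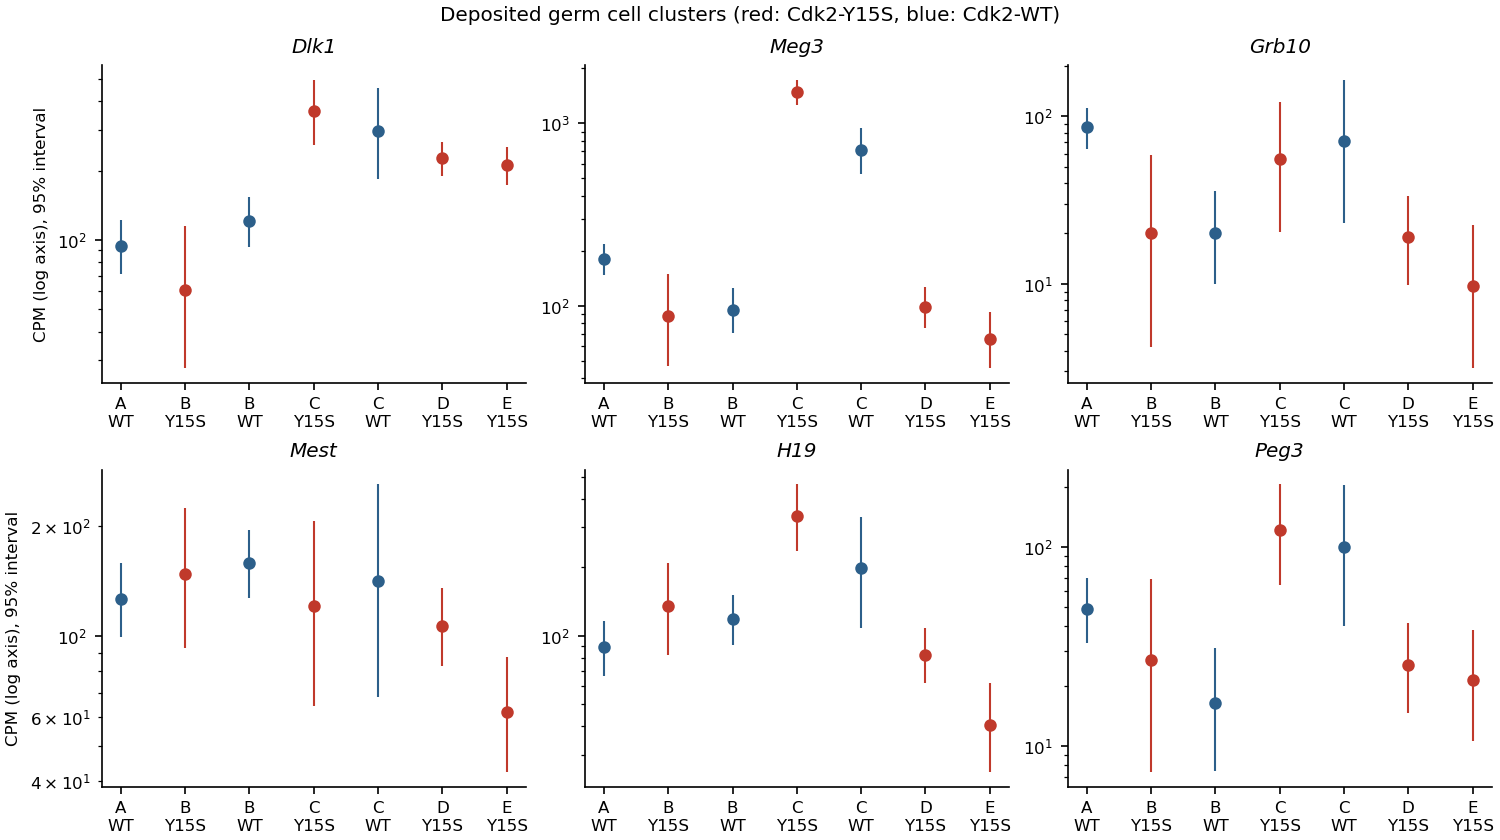
Level in CPM (log axis) of 6 imprinted genes in the authors' germ cell clusters, split by library (red Cdk2-Y15S, blue Cdk2-WT); bars are exact 95% Poisson intervals. Dlk1 is higher in D and E than in A, Grb10 is higher in A, and Meg3 peaks in C.

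With 1 library for each genotype there is no test and no replicate check, so differences between genotypes describe these libraries, and a gene is counted where it passes 1.5-fold with at least 50 UMIs over the pair of libraries. In the germ cells of the authors' table, 8 of the 10 genes had that depth. Dlk1 was higher, at 213 CPM in Cdk2-Y15S and 118 CPM in Cdk2-WT (299 and 143 UMIs, log2 ratio 0.85, counting interval 0.56 to 1.15), and Grb10 was lower, at 18.6 and 55.2 CPM (26 and 67 UMIs, log2 ratio -1.56, -2.29 to -0.90). Of all genes at that depth 11.7% were higher and 15.1% lower, and 1 higher and 1 lower of 8 is near that background. Mest, at 95.6 and 142 CPM, missed the fold (log2 ratio -0.57, -0.91 to -0.23). Without the 13 cells of cluster C, an alternative chosen after seeing the data, 1 was higher and 3 were lower of 8 (backgrounds 12.7% and 15.7%). The 3 were Grb10 (-1.79), Meg3 (84.2 and 139 CPM, -0.72, -1.09 to -0.36) and Mest (93.5 and 142 CPM, -0.60, -0.95 to -0.25), and Dlk1 came to 0.91. In the mean of the ratios within clusters B and C, Dlk1 turned to -0.32 and Grb10 came to -0.10. A mean of both clusters does not hold D, E or A, where most cells of either library lie.

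Dlk1 and Grb10 of Cdk2-Y15S over Cdk2-WT kept these directions in the wider germ class, which adds Cdk2-HET, with and without its collagen-bearing cells. Among germ cells with under 5 collagen UMIs (74, 53 and 111 cells), Dlk1 was at 185 CPM in Cdk2-Y15S, 133 CPM in Cdk2-HET and 94.8 CPM in Cdk2-WT, with log2 ratios over Cdk2-WT of 0.96 (0.62 to 1.31) and 0.49 (0.07 to 0.90). Grb10 was at 17.7, 63.9 and 60.2 CPM, with log2 ratios of -1.73 (-2.64 to -0.98) and 0.09 (-0.50 to 0.65). Mest was at 88.4, 223 and 149 CPM, with log2 ratios of -0.75 (-1.15 to -0.37) and 0.58 (0.26 to 0.90). In these cells 14.2% of all genes were past the fold upward and 17.5% downward in Cdk2-Y15S, and 5.77% and 3.92% in Cdk2-HET. The Meg3 log2 ratio of Cdk2-Y15S over Cdk2-WT was 1.02 (0.78 to 1.27) over all germ cells and -0.51 (-0.98 to -0.08) without the collagen-bearing ones, at 69.6 and 99.9 CPM. Over all germ cells 2 genes were higher and 1 lower of 8 in Cdk2-Y15S (backgrounds 12% and 16.2%), and 3 were higher and none lower of 7 in Cdk2-HET (5.28% and 4%). The 3 of Cdk2-HET were Dlk1 (0.91), Meg3 (1.00) and Plagl1 (0.62, interval -0.19 to 1.39). Of the 202 Meg3 UMIs in Cdk2-HET germ cells, single cells held 76 and 35. Without the collagen-bearing cells Meg3 came to 0.36 (-0.07 to 0.77) and Plagl1 to 0.27 (-0.72 to 1.17). With Dlk1 at 0.49, none of these 3 reached 1.5-fold there.

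Dlk1 moved in opposite directions in different somatic classes. In myoid cells it was at 212 CPM in Cdk2-Y15S, 365 CPM in Cdk2-HET and 462 CPM in Cdk2-WT, with log2 ratios over Cdk2-WT of -1.13 (-1.25 to -1.01) and -0.34 (-0.44 to -0.24). Few myoid cells carried most of it: the tenth of cells with the most held 53.1%, 54.9% and 52.03% of the Dlk1 UMIs, up to 59 in 1 cell, and the median cell held 1. A Dlk1 UMI was seen after thinning in 37.3%, 45.01% and 53.8% of myoid cells. In Leydig cells the log2 ratios were 1.49 (0.78 to 2.32) and 1.43 (0.71 to 2.25), on 67, 65 and 20 UMIs; with at least 50 UMIs of the steroid genes asked of a Leydig cell the ratio of Cdk2-HET was 0.35. In Sertoli cells they were 0.77 (0.59 to 0.96) and 0.46 (0.28 to 0.64). In stromal cells, where Dlk1 is highest, they were 0.03 and 0.03. Col3a1 in Leydig cells was at 423, 323 and 226 CPM in Cdk2-Y15S, Cdk2-HET and Cdk2-WT, and in Sertoli cells at 20.2, 19.2 and 11.5 CPM, in the same order as Dlk1. In myoid cells Col3a1 was at 515, 578 and 419 CPM, which is not the order of Dlk1. Its part in the Dlk1 levels was not tested. In stromal cells Col3a1 itself was at 2114, 1889 and 1254 CPM.

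Of the other genes, Mest and Nnat passed the fold in myoid cells. In myoid cells of Cdk2-Y15S Mest was lower than in Cdk2-WT (254 against 421 CPM, log2 ratio -0.73, -0.84 to -0.61) and Nnat higher (263 against 171 CPM, 0.62, 0.48 to 0.77), so that 1 gene was higher and 2 lower of 10, with backgrounds of 5.49% and 4.64%. Nnat was also higher in Cdk2-Y15S stromal cells (0.60, 0.32 to 0.89), the single gene of 10 past the fold there (backgrounds 6.92% and 3.72%), and reached 0.51 (0.38 to 0.65) in Sertoli cells, below the fold. In Sertoli cells of Cdk2-Y15S Dlk1 alone of the 10 passed (8.06% and 3.28%), and in Leydig cells Dlk1 alone of 5 (7.54% and 9.54%). In Cdk2-HET over Cdk2-WT none of the 10 passed in myoid (4.22% and 2.15%) or stromal cells (4.13% and 2.47%), Grb10 passed in Sertoli cells (log2 ratio 0.80, 0.29 to 1.34, on 83 and 52 UMIs; 3.5% and 2.03%), and H19 (1.25, 0.55 to 2.04) and Dlk1 passed of 5 in Leydig cells (6.95% and 7.66%). H19 there was 2.60 at the Leydig limit of 50 UMIs, and it rested on few cells: 7 of 70 Cdk2-HET cells held 65.1% of 63 UMIs, and 7 of 76 Cdk2-WT cells 95.5% of 22 UMIs, with 11 in 1 cell. Both ratios share the Cdk2-WT library. In whole classes, fewer transcripts per cell and fewer transcribing cells cannot be told apart from these sums.

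**Figure D5:**
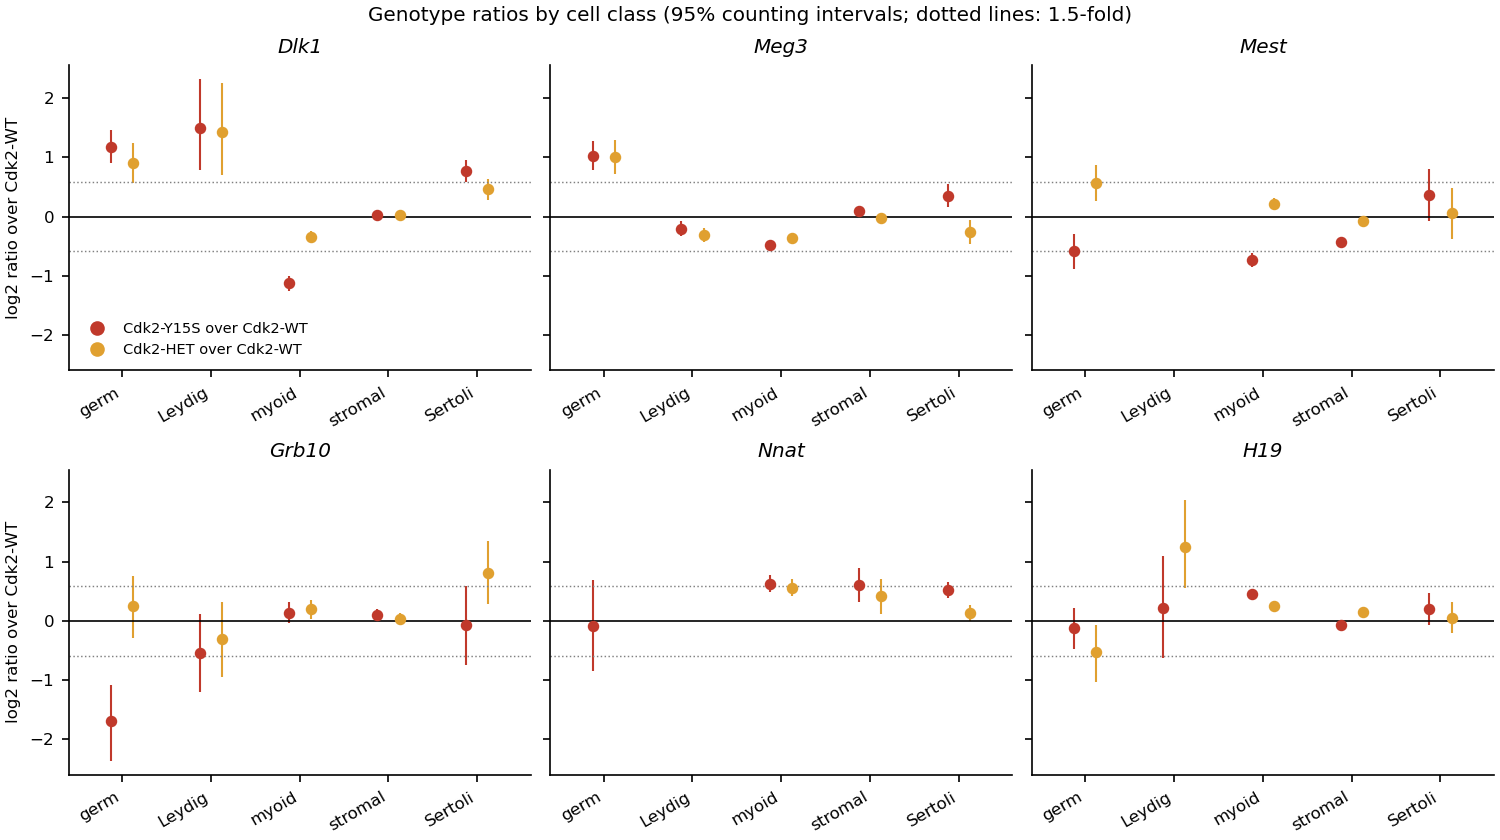
Log2 ratio of CPM over Cdk2-WT (vertical axis) of 6 imprinted genes in 5 cell classes, for Cdk2-Y15S (red) and Cdk2-HET (orange), with 95% counting intervals; genes under 50 UMIs are left out and dotted lines mark 1.5-fold. Dlk1 lies above 0 in germ, Leydig and Sertoli cells and below 0 in myoid cells.

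A wider list of 47 imprinted genes was read beside the 10; 45 had an entry in the matrix and 35 passed the filter on low counts. In stromal over Sertoli cells 22 of the 35 rose and 4 fell (median log2 fold change 1.08), with the highest values for Mirg (6.91 ± 0.27 SE), a further noncoding RNA of the Dlk1-Meg3 locus, Cdkn1c (6.86 ± 0.27 SE), an inhibitor of cyclin-dependent kinases, and Igf2 (6.62 ± 0.19 SE), and the lowest for Peg10 (-2.22 ± 0.32 SE), Ppp1r9a (-1.78 ± 0.14 SE) and Mcts2 (-0.81 ± 0.16 SE). In myoid over stromal cells 2 rose and 11 fell: Nap1l5 (3.26 ± 0.35 SE) and Zrsr1 (0.59 ± 0.18 SE) were higher, and Cdkn1c (-2.74 ± 0.22 SE), Zim1 (-2.33 ± 0.24 SE) and Mirg (-2.08 ± 0.20 SE) were lowest. In Leydig over stromal cells 7 rose and 17 fell, led upward by Ddc (1.63 ± 0.46 SE), Zrsr1 (1.47 ± 0.24 SE) and Trappc9 (1.17 ± 0.30 SE) and downward by Slc38a4 (-3.84 ± 0.77 SE), Zim1 (-3.51 ± 0.48 SE) and Magel2 (-3.44 ± 1.03 SE).

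In germ over somatic cells 10 of these 35 rose and 16 fell (median log2 fold change -0.53). The highest were Phlda2, Ascl2 and Sfmbt2, genes with known roles in the placenta. Phlda2 was at 10.4, 21.3 and 11.4 CPM in germ cells of Cdk2-Y15S, Cdk2-HET and Cdk2-WT, against 0 UMIs in every Leydig sum and at most 0.522 CPM in any other somatic sum. Ascl2 was at 38.5, 22.7 and 21.4 CPM in germ cells and at most 1.48 CPM in the somatic sums. Sfmbt2 was at 79.5, 117 and 106 CPM in germ cells, and its highest somatic value was 10.5 CPM (log2 fold change 4.19 ± 0.17 SE, edgeR adjusted p = 9.75e-15). The lowest were Sgce (-3.74 ± 0.19 SE), Cd81 (-3.58 ± 0.13 SE) and Gnas (-3.54 ± 0.10 SE).

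Across the 15 sums the genes most like each imprinted gene in level were sought among 11744 genes, as a description over sums that share libraries and classes. Penk was among the closest to Dlk1 (Pearson r = 0.976), and Meg3 was closest to Cyba (0.989) and Smoc2 (0.984), and H19 to Kcnd3 (0.996) and Fhl2 (0.989). Peg3 was closest to Timp2 (0.991) and Cnrip1 (0.988), Mest to Cacnb3 (0.990) and Flnc (0.979), Grb10 to Ethe1 (0.972) and Plpp1 (0.971), and Plagl1 to Igf1 (0.987) and Dcn (0.986), the last of which helped to choose the classes. For Nnat, Snrpn and Impact the closest genes were Tmem44 (0.952) and Sema6a (0.927), Chmp4b (0.898) and Eif4a1 (0.881), and Bace1 (0.946) and Rbbp9 (0.943).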

How the data were processed

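Single cells of P3 testis were read with 10x Genomics 3-prime version 2 chemistry. The authors deposited counts, as whole UMIs per gene and cell for 14422 cells, and a second table of counts for 141 germ cells with clusters; the 10 genes equal each other in both. Tools named per the submitters' processing notes are Seurat and Cell Ranger 2.1.0, with build mm10; no annotation is named. The members and lists were chosen with earlier results of these data known.

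Cells under 500 genes or over 20% mitochondrial UMIs were left out, and Scrublet doublets (expected rate 6%, run with scanpy 1.11.5; 62 in Cdk2-Y15S, 90 in Cdk2-HET and 84 in Cdk2-WT) were removed. The deposited germ cells were used whole. Germ cells had at least 1 UMI of at least 2 of Ddx4, Dazl and Mael; Leydig cells at least 20 UMIs over Star, Cyp11a1, Cyp17a1, Hsd3b1 and Insl3; Sertoli cells at least 3 over Amh, Sox9, Cldn11 and Inha and at most 2 over the collagen set Col1a1, Col1a2, Col3a1 and Dcn. Stromal and myoid cells had at least 5 of that set, and myoid cells at least 8 over Acta2, Myh11 and Tagln.

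UMIs were summed by class and library (569870 to 15518950 UMIs per sum) and tested with edgeR 4.0.16 (R 4.3.3; TMM, filterByExpr, class and library terms, quasi-likelihood test, Benjamini-Hochberg over 13565 genes, threshold 0.05). Tested on simulated data for Leydig over stromal cells over 13565 genes with 200 changed, it recovered 83% of 2-fold and 100% of 4-fold changes, and 5.18% of its calls were false. The simulated classes shared 1 mean profile apart from these 200 genes, all raised in Leydig cells. The real classes differ in far more genes, so these rates need not hold for them. Genotype ratios are log2 with 0.5 UMI added, with conditional exact binomial intervals; CPM has exact Poisson and shares exact Clopper-Pearson intervals, at 95%, and all cover counting error only. DESeq2 1.42.0, other scalings, limits, thinning and left-out libraries were alternatives. All members are named; of the other imprinted genes the 3 highest and 3 lowest called ones per contrast, and for each member the 2 genes with the highest correlation of log2(CPM + 10) among genes with at least 200 UMIs, of which 1 is not reported here. Positions are from GENCODE M21 and promoters from RefSeq GRCm38.p6; sequence was found for 8 of the 10.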

Additional observations from a re-analysis of the deposited data

Results flagged for a closer look

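Dlk1 in Cdk2-Y15S over Cdk2-WT passed 1.5-fold upward in 3 classes and downward in myoid cells. The log2 ratio in germ cells exceeded that in myoid cells by 2.30, the one in Leydig cells by 2.62 and the one in Sertoli cells by 1.90. With 1 library for each genotype these differences were not tested. The Leydig ratio rested on 67 and 20 UMIs, and the myoid ratio was -0.91 with doublet calls kept. Col1a1 was also higher in Cdk2-Y15S than in Cdk2-WT in germ (96.0 and 31.4 CPM), Leydig (42.0 and 8.77) and Sertoli cells (17.8 and 7.73). In myoid cells, where Dlk1 was lower, Col1a1 was higher too (835 and 538 CPM). The part of stromal RNA in these ratios was not tested.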

How the results depend on the processing

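Of the recomputed log2 fold changes of the 10 genes between classes, 513 kept their direction and their side of the threshold, 14 lost and 1 gained the call, and 2 turned: Nnat in Leydig over stromal cells, not called, was 0.19 at a mitochondrial limit of 10% and 0.088 with a Leydig limit of 10 UMIs. Of their recomputed log2 ratios between genotypes, 347 moved by less than their counting interval, 50 moved by more and 2 past 1.5-fold turned. Thinning cells to 3000 UMIs lowered the genes called to 6449 from 9675 in germ over somatic cells and to 3561 from 5418 in Leydig over stromal cells, with fewer UMIs and fewer genes tested. Leaving out a library gave 1248 to 2938 genes called in myoid over stromal cells, against 2818; the lowest was without Cdk2-HET. Without the replicate block for library, which pairs classes of 1 suspension, 9588, 8206, 2357 and 5288 genes were called in germ over somatic, stromal over Sertoli, myoid over stromal and Leydig over stromal cells, against 9675, 8678, 2818 and 5418, and 10, 10, 7 and 8 of the 10 genes. The number of genes of the 10 called was 9 to 10, 10, 7 to 8 and 7 to 8 over the left-out libraries. Library totals in place of TMM moved the median of all genes by 0.47 in germ over somatic, -0.13 in stromal over Sertoli and 0.15 in Leydig over stromal cells, and the RLE factors by 0.22 in germ over somatic cells. Leaving out germ cells with 5 or more collagen UMIs, chosen after seeing the data, lowered the gene and class pairs past 1.5-fold in Cdk2-HET over Cdk2-WT to 3 from 6 and turned Meg3 in germ cells of Cdk2-Y15S over Cdk2-WT to -0.51; the mean over clusters B and C turned Dlk1 to -0.32. Without cluster C, Meg3 in the deposited germ cells was -0.72, against 0.15, also chosen after seeing the data. Too shallow for a ratio between genotypes, with under 50 UMIs, were Impact and Snrpn in germ cells, Nnat in germ cells of Cdk2-HET over Cdk2-WT, and Mest, Plagl1, Nnat, Snrpn and Impact in Leydig cells.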

Other observations

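Other imprinted genes with 50 or more UMIs in the deposited germ cells showed ratios as large as those of Grb10 and Dlk1; they were chosen after their values were seen. Slc38a4, an amino acid transporter gene, had 35 UMIs in Cdk2-Y15S and 92 in Cdk2-WT (log2 ratio -1.59, counting interval -2.21 to -1.03), and Cdkn1c 36 and 88 (-1.49, -2.10 to -0.92). Igf2 had 43 and 67 UMIs (-0.84, -1.44 to -0.27). Ascl2 was higher, with 59 and 27 UMIs (0.91, 0.24 to 1.63). Slc38a4 was at 108 CPM in cluster A, 28.6 CPM in D and 19.3 CPM in E, and Cdkn1c at 114, 20.7 and 34.8 CPM. Ascl2 was at 15.1 CPM in A, 41.4 CPM in D and 48.4 CPM in E. A holds Cdk2-WT cells only and D and E Cdk2-Y15S cells only, so cluster and genotype cannot be told apart here. Clusters B and C, which hold both genotypes, are left out of these levels. Of the 21 other imprinted genes at that depth 2 were higher and 5 lower in Cdk2-Y15S, against 11.7% and 15.1% of all genes.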
